A study of Arabidopsis thaliana with 3 samples.

Results

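The genes described here are 10 Arabidopsis thaliana genes of sulfate uptake and assimilation, chosen by locus code, out of 25665 loci with a probe on the arrays. They are 3 sulfate transporters (SULTR1;1, SULTR1;2 and SULTR2;1), the ATP sulfurylase ATPS1, the 3 reductases of adenosine phosphosulfate (APR1, APR2 and APR3), the sulfite reductase SIR, the adenosine phosphosulfate kinase APK1 and the sulfur deficiency marker LSU1. Each had 1 probe, and all 10 probes were well above background in both genotypes on all 3 arrays, with no saturated spot. RNA of whole seedlings, aged 3 days, of tdt-1 mutants and of the wild type, raised on MS agar in continuous light, was hybridised together on 2-colour Agilent arrays. The 3 arrays are biological replicates per the labels, and the dyes were swapped on replicate 3. The accession of the plants, the tdt-1 lesion and the number of seedlings pooled are not given in the sources used here.

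Plants take up sulfate through proton-coupled transporters of the root surface and move it to the shoot through vascular transporters. In the plastid, ATP sulfurylase activates sulfate to adenosine phosphosulfate, a branch point. APS reductase and then sulfite reductase lead from there to sulfide and cysteine, while APS kinase makes PAPS, the sulfate donor for sulfated metabolites such as glucosinolates. Genes of uptake and of APS reductase are known to be induced when plants lack sulfur, together with markers such as the LSU genes.

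All ratios below compare tdt-1 with wild type on a log2 scale (below 0 is lower in tdt-1), and levels are normalized log2 channel intensities, in the order of replicates 1, 2 and 3. Means are given ± SD over 3 arrays, and tests are limma's moderated test with Benjamini-Hochberg adjustment over all 20484 tested loci. Whole seedlings were measured, so fewer cells of a type and less RNA per cell cannot be told apart.

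Replicates 1 and 2 shared a scan day, an array layout and a software version, and replicate 3 differed in all of these as well as in dye, so that those differences cannot be told apart. Across the 20484 tested loci the ratios of replicates 1 and 2 correlated at r = 0.94, and those of replicate 3 correlated with them at 0.53 and 0.57, as a description across genes, which are not independent. The reference table lists TDT and TRIDENT among the synonyms of DCP2, which encodes the catalytic subunit of the decapping enzyme. Its probe gave −0.44, −0.46 and −0.96, and its mean of −0.62 ± 0.29 missed the threshold of 0.05 (limma adjusted p = 0.0629); whether the probe lies outside the lesion is not known, so this does not check the labels.

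In tdt-1 seedlings SULTR1;2, the main high-affinity sulfate transporter of the root surface, was 2.71-fold lower than in wild type, and APK1, which makes PAPS in the plastid, was 1.68-fold lower. No other gene of the 10 passed the test, and none passed upward. The share of 2 in 10 lower stands beside 5.97% of all tested loci called lower, 7.36% called higher and 13.3% called in either direction. At an unadjusted p under 0.05, 5 of the 10 were lower and 0 higher, beside 15.6% and 19.5% of all tested loci. The mean ratio was below 0 for 9 of the 10 genes (9644 of 20484 over all tested loci), and it was below 0 on every array for 6 of them (27.5% of all tested loci). The median ratio of the 10 was −0.57, against 0.02 over all tested loci.

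**Figure D1:**
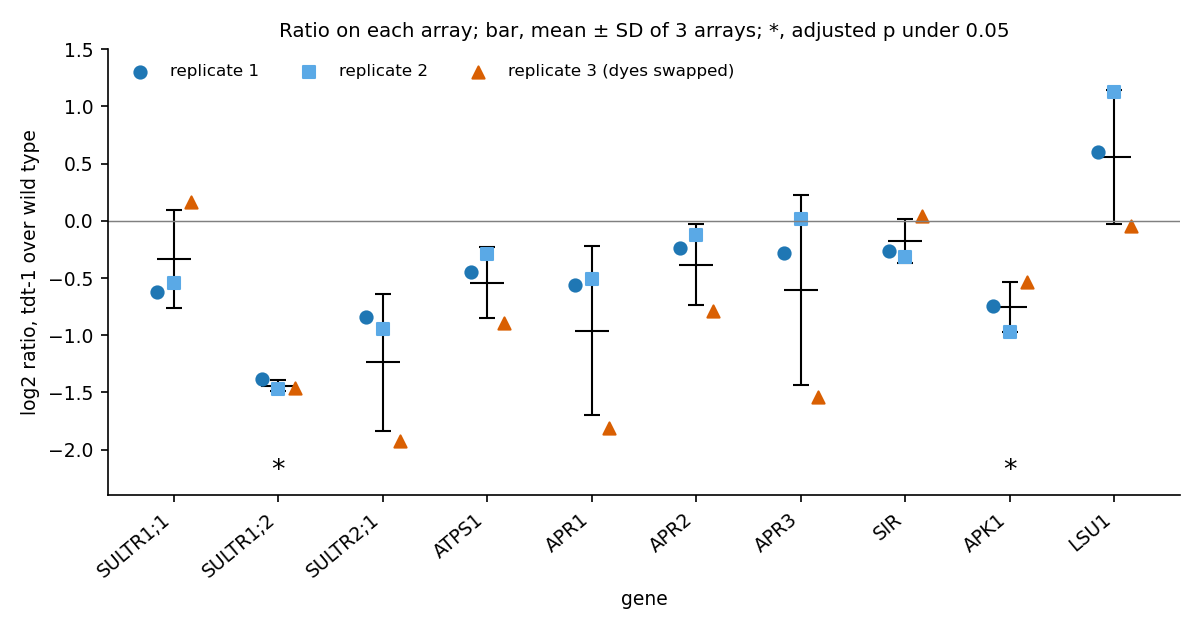
Log2 ratio of tdt-1 over wild type (vertical axis) for each of the 10 genes (horizontal axis), with 1 symbol per array, the horizontal bar at the mean and the error bar spanning ± 1 SD over 3 arrays. The asterisks mark SULTR1;2 and APK1, the 2 genes with an adjusted p under 0.05, and the triangles of replicate 3 lie well below the other symbols for SULTR2;1, APR1 and APR3.

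Among the transporters, SULTR1;2 (AT1G78000, chromosome 1) had levels of 10.73, 10.75 and 10.92 in wild type and of 9.35, 9.28 and 9.45 in tdt-1. The genotypes did not overlap, and every array gave nearly the same gap. Its ratios were −1.38, −1.47 and −1.46, with a mean of −1.44 ± 0.05 (limma adjusted p = 0.0147), and only 0.893% of tested loci had a lower mean ratio. The call was lost without replicate 2, at a mean of −1.42 (limma adjusted p = 0.0655), with replicates 1 and 2 averaged (limma adjusted p = 0.0759) and with median centring in place of loess (mean −1.21, limma adjusted p = 0.152). It held with the scan set as a random block (limma adjusted p = 0.0400). Over the 13 alternatives the adjusted p ranged from 2.91e-05 to 0.152.

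SULTR1;1 (AT4G08620, chromosome 4), the second high-affinity transporter of the root surface, had levels of 8.09, 8.24 and 8.14 in wild type and of 7.47, 7.70 and 8.30 in tdt-1. It was lower in tdt-1 on replicates 1 and 2 and slightly higher on replicate 3, so that the genotypes overlapped. The ratios of −0.62, −0.54 and 0.16 averaged −0.33 ± 0.43 (limma adjusted p = 0.283), with a 95% interval from −0.85 to 0.18. Without replicate 3 the mean was −0.58. The background-subtracted signal in tdt-1 was low on replicates 1 and 2, at 40 and 61, beside medians of 44 and 47 over all probes. With the scanner log ratio the mean was −0.65 (limma adjusted p = 0.225).

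SULTR2;1 (AT5G10180, chromosome 5) is a low-affinity transporter of the vascular tissue that takes part in moving sulfate from root to shoot. Its levels were 10.70, 10.74 and 10.31 in wild type and 9.86, 9.79 and 8.38 in tdt-1, without overlap between the genotypes. The gap was wider on replicate 3, where the ratio was −1.93 beside −0.84 and −0.94 on replicates 1 and 2. The mean of −1.24 ± 0.60 lay just outside the threshold (limma adjusted p = 0.0508, 95% interval from −1.93 to −0.55). It crossed the threshold under 5 of 13 alternatives, over which the mean ranged from −1.44 to −0.89 and the adjusted p from 3.17e-05 to 0.314.

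**Figure D2:**
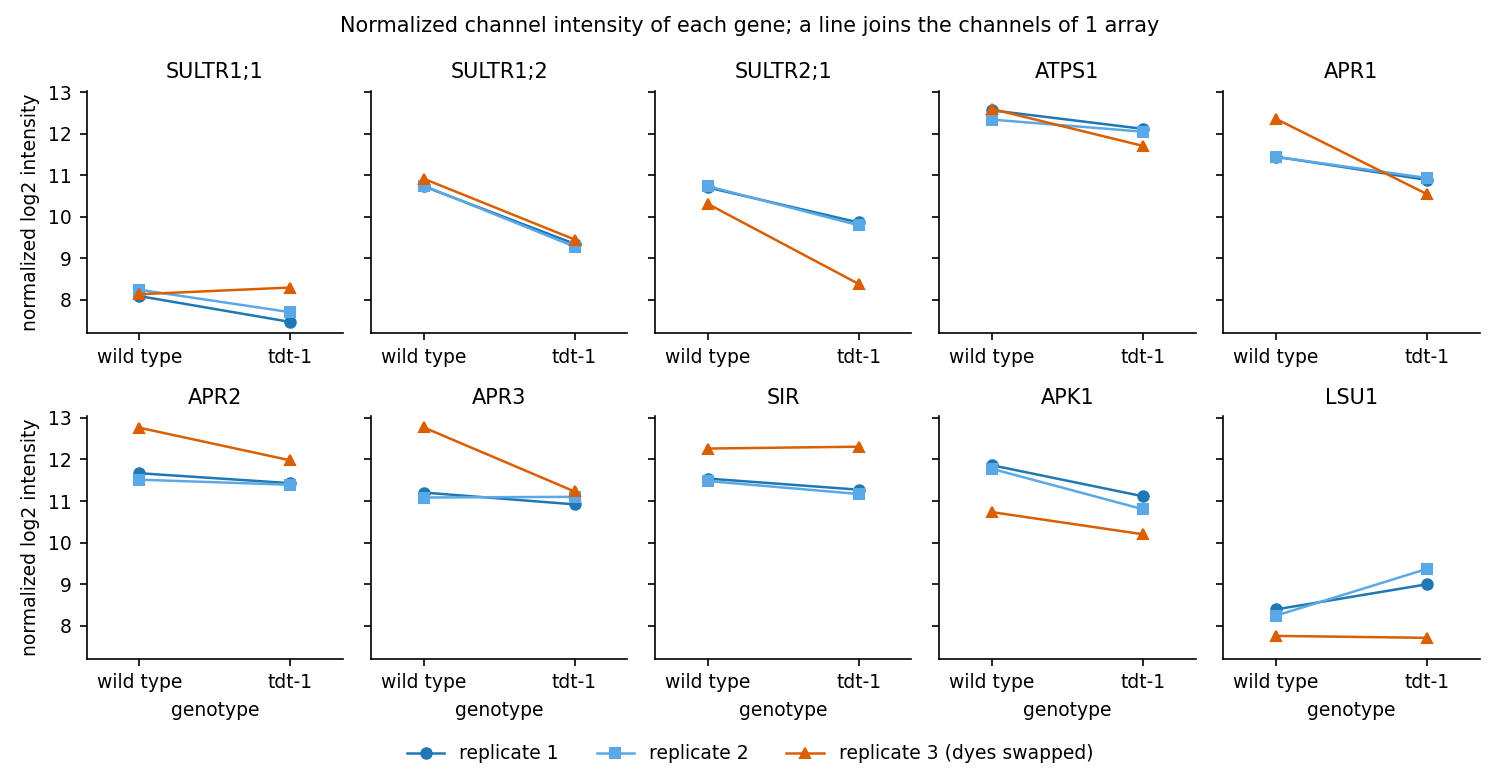
Normalized log2 intensity (vertical axis) of the 10 genes in wild type and tdt-1 (horizontal axis), with a line joining the 2 channels of each array. The lines of SULTR1;2 lie almost on top of each other, those of APK1 run down from different heights, and the line of LSU1 is flat on replicate 3 and rises on replicates 1 and 2.

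At the activation step, ATPS1 (AT3G22890, chromosome 3, APS1 in the reference table) had ratios of −0.45, −0.29 and −0.89. Every array gave the lower value to tdt-1, and its levels of 11.71 to 12.12 in tdt-1 lay under the 12.34 to 12.60 of wild type. The mean of −0.54 ± 0.31 missed the threshold (limma adjusted p = 0.0852).

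The 3 APS reductase genes, whose product carries out the first reduction of activated sulfate in the plastid, were spread more widely between arrays than the transporter SULTR1;2. APR1 (AT4G04610, chromosome 4) had levels of 11.44, 11.44 and 12.36 in wild type and of 10.89, 10.93 and 10.55 in tdt-1, without overlap. Its ratios were −0.56, −0.51 and −1.81, and their mean of −0.96 ± 0.74 did not pass (limma adjusted p = 0.110). The mean became −0.53 without replicate 3. APR3 (AT4G21990, chromosome 4) had levels of 11.20, 11.09 and 12.77 in wild type and of 10.92, 11.10 and 11.23 in tdt-1. The genotypes overlapped on replicates 1 and 2 and were far apart on replicate 3, with ratios of −0.28, 0.02 and −1.54 and a mean of −0.60 ± 0.83 (limma adjusted p = 0.277). Without replicate 3 that mean became −0.13. APR2 (AT1G62180, chromosome 1) moved least of the 3 on average, with ratios of −0.24, −0.12 and −0.79 and a mean of −0.38 ± 0.35 (limma adjusted p = 0.184, 95% interval from −0.83 to 0.06). For all 3 genes the lowest ratio was on replicate 3, and the differences between the 3 genes were not tested.

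SIR (AT5G04590, chromosome 5), the single sulfite reductase of the plastid, had ratios of −0.27, −0.31 and 0.04. The mean of −0.18 ± 0.19 did not pass (limma adjusted p = 0.326, 95% interval from −0.49 to 0.13), and with median centring in place of loess it changed sign to 0.11.

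APK1 (AT2G14750, chromosome 2, APK in the reference table) had levels of 11.86, 11.78 and 10.73 in wild type and of 11.12, 10.80 and 10.20 in tdt-1. The ranges of the genotypes overlapped between arrays, while tdt-1 was the lower channel on each array. The ratios of −0.75, −0.97 and −0.53 had a mean of −0.75 ± 0.22 (limma adjusted p = 0.0353). The call was lost without replicate 1 (limma adjusted p = 0.158) or without replicate 2 (limma adjusted p = 0.219), with replicates 1 and 2 averaged (limma adjusted p = 0.192), with the scan set as a random block (limma adjusted p = 0.191) and with median centring, where the mean was −0.43 (limma adjusted p = 0.344). The adjusted p over the 13 alternatives started at 0.000418.

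LSU1 (AT3G49580, chromosome 3), which encodes a small protein induced by low sulfur, was the 1 gene of the 10 with a mean above 0. Its levels were 8.39, 8.24 and 7.75 in wild type and 9.0, 9.37 and 7.71 in tdt-1. It was higher in tdt-1 on replicates 1 and 2 and level with wild type on replicate 3. The ratios of 0.61, 1.12 and −0.05 averaged 0.56 ± 0.59 (limma adjusted p = 0.193, 95% interval from −0.11 to 1.23), and without replicate 3 the mean was 0.86.

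The 10 genes differed most between the scan sets at APR3, APR1 and SULTR2;1, where replicate 3 stood below the mean of replicates 1 and 2 by a difference of −1.41, −1.28 and −1.04. The difference was −0.04 for SULTR1;2, 0.33 for APK1 and 0.74 for SULTR1;1. Markers of the tissues in a seedling were set beside them. The 8 green tissue markers, which include Rubisco small subunits and light-harvesting proteins, all stood lower on replicate 3 than on the other arrays. Over all tested loci, 11574 of 20484 stood lower on replicate 3 than the mean of replicates 1 and 2. The 8 markers had a median ratio of −0.32, −0.39 and −2.38 on replicates 1, 2 and 3. None of them passed the test. At an unadjusted p under 0.05, 3 were lower and 0 higher, beside 15.6% and 19.5% of all tested loci. All 8 were below 0 on every array, beside 27.5% of all tested loci. For RBCS1A, LHCB1.1 and LHCA1, however, both channels were saturated on replicates 1 and 2. Each had ratios of −0.22 and −0.36 there, and a scanner ratio of 0.03 on replicate 1. Their signs on those 2 arrays are therefore not measured, and the medians of those arrays rest partly on saturated spots. The summed level of the 8 markers on a linear scale was 189024 to 523069 in tdt-1 and 667190 to 958406 in wild type. Of the 8, 4 had a saturated spot, which limits their ratios. The 12 root markers had medians of −0.13, −0.06 and 0.35. By the test 2 of them were higher in tdt-1 and 0 lower, beside 7.36% and 5.97% of all tested loci. The 2 were TIP2;3, a tonoplast aquaporin (2.12 ± 0.17), and CASP1, of the Casparian strip (0.69 ± 0.14). TIP2;3 lost the call with median centring and with replicates 1 and 2 averaged, and CASP1 lost it there as well as with the scan set as a block and without replicate 1 or 2. Of the other 10, AHA7, a plasma membrane proton pump, was lower at an unadjusted p under 0.05, with ratios of −1.33, −1.26 and −0.08, and 9 had a larger p. The summed level of the root markers was 93398, 97289 and 87299 in tdt-1 and 66297, 64506 and 136260 in wild type, so that it was higher in tdt-1 on replicates 1 and 2 and lower on replicate 3, the reverse of the medians. BGLU23, a beta-glucosidase with a saturated spot on 1 array, made up 86.4% to 94.7% of that sum. All green tissue and root markers were above background on every array in both genotypes. Of the 5 seed markers 2 were tested and neither passed; 1 marker, SESA1, was not well above background in wild type on any array. The summed seed marker level was 2368, 1105 and 1709 in tdt-1 and 749, 982 and 968 in wild type. EM6 made up 27.9% to 75.7% of the sum in tdt-1 and 49.0% to 69.5% in wild type. Neither tested marker kept its sign: the ratios of EM6 were 2.29, 0.26 and −0.50, and those of CRA1 were 1.21, −0.02 and 3.50. The part of tissue makeup in the sulfate gene ratios was not tested.

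**Figure D3:**
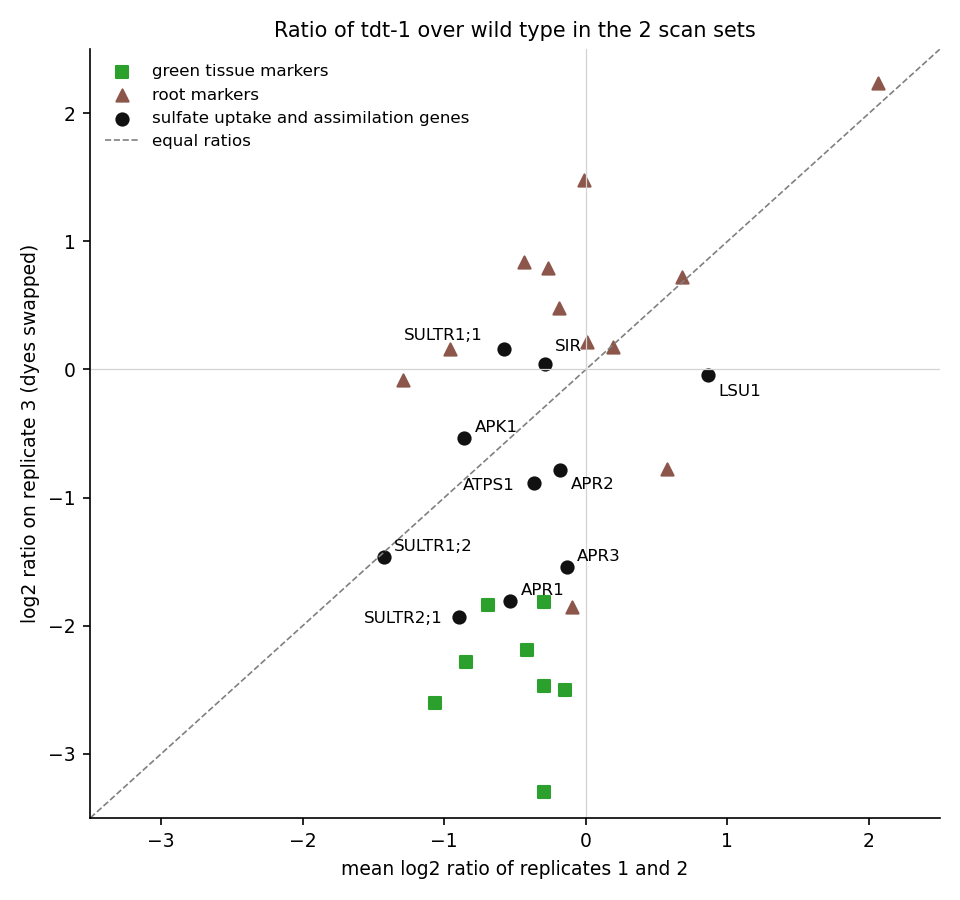
Log2 ratio on replicate 3 (vertical axis) against the mean log2 ratio of replicates 1 and 2 (horizontal axis) for the 10 sulfate genes, the green tissue markers and the root markers, with the dashed line marking equal ratios. SULTR1;2 sits on the line. APR3, APR1 and SULTR2;1 lie furthest below it, and LSU1, APR2 and ATPS1 also lie below it. SULTR1;1, SIR and APK1 lie above it.

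Around these genes, genes of the PAPS branch were set beside them. Of 8 further genes of sulfate activation and PAPS handling, 2 were lower, 2 higher and 4 did not pass, beside 5.97% lower and 7.36% higher over all tested loci, and the list median was −0.18 against 0.02. APK2 (AT4G39940), the second plastid kinase that supplies PAPS for glucosinolates, had ratios of −0.95, −1.22 and −0.74 and fell by 0.97 ± 0.24 (limma adjusted p = 0.0259), beside the 0.75 by which APK1 fell. The remaining kinases stood above wild type on every array: APK3 (AT3G03900), the cytosolic form, rose by 0.48 ± 0.03 (limma adjusted p = 0.0392) and APK4 (AT5G67520) by 0.45 ± 0.05 (limma adjusted p = 0.0445). APK1 and APK2 were lower and APK3 and APK4 higher on all 3 arrays, and the difference between the pairs was not tested. ATPS3 (AT4G14680), another ATP sulfurylase, fell by 0.72 ± 0.29 (limma adjusted p = 0.0479). The sulfotransferases SOT17 (AT1G18590) and SOT18 (AT1G74090) use PAPS to complete aliphatic glucosinolates. SOT17 fell by 1.27 ± 0.24 (limma adjusted p = 0.0197) and SOT18 by 1.46 ± 0.24 (limma adjusted p = 0.0172). SOT16 had no value on replicate 3 and was not tested. Its ratios on replicates 1 and 2 were 0.28 and −0.08, without the drop of the other sulfotransferases. Of 6 tested regulators, 5 of glucosinolates and the light-signalling factor HY5, 2 fell and 4 did not pass, beside 5.97% of all tested loci called lower. The former were MYB29, a regulator of aliphatic glucosinolates (−0.72 ± 0.24), and OBP2, a DOF factor (−0.78 ± 0.06). None of these 8 calls held without replicate 1 (limma adjusted p from 0.0534 to 0.285) or without replicate 2 (limma adjusted p from 0.0736 to 0.368) or with the scan set as a random block, and over all alternatives the adjusted p ran from 6.27e-05 to 0.477. All 8 were also lost with median centring and with replicates 1 and 2 averaged.

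**Figure D4:**
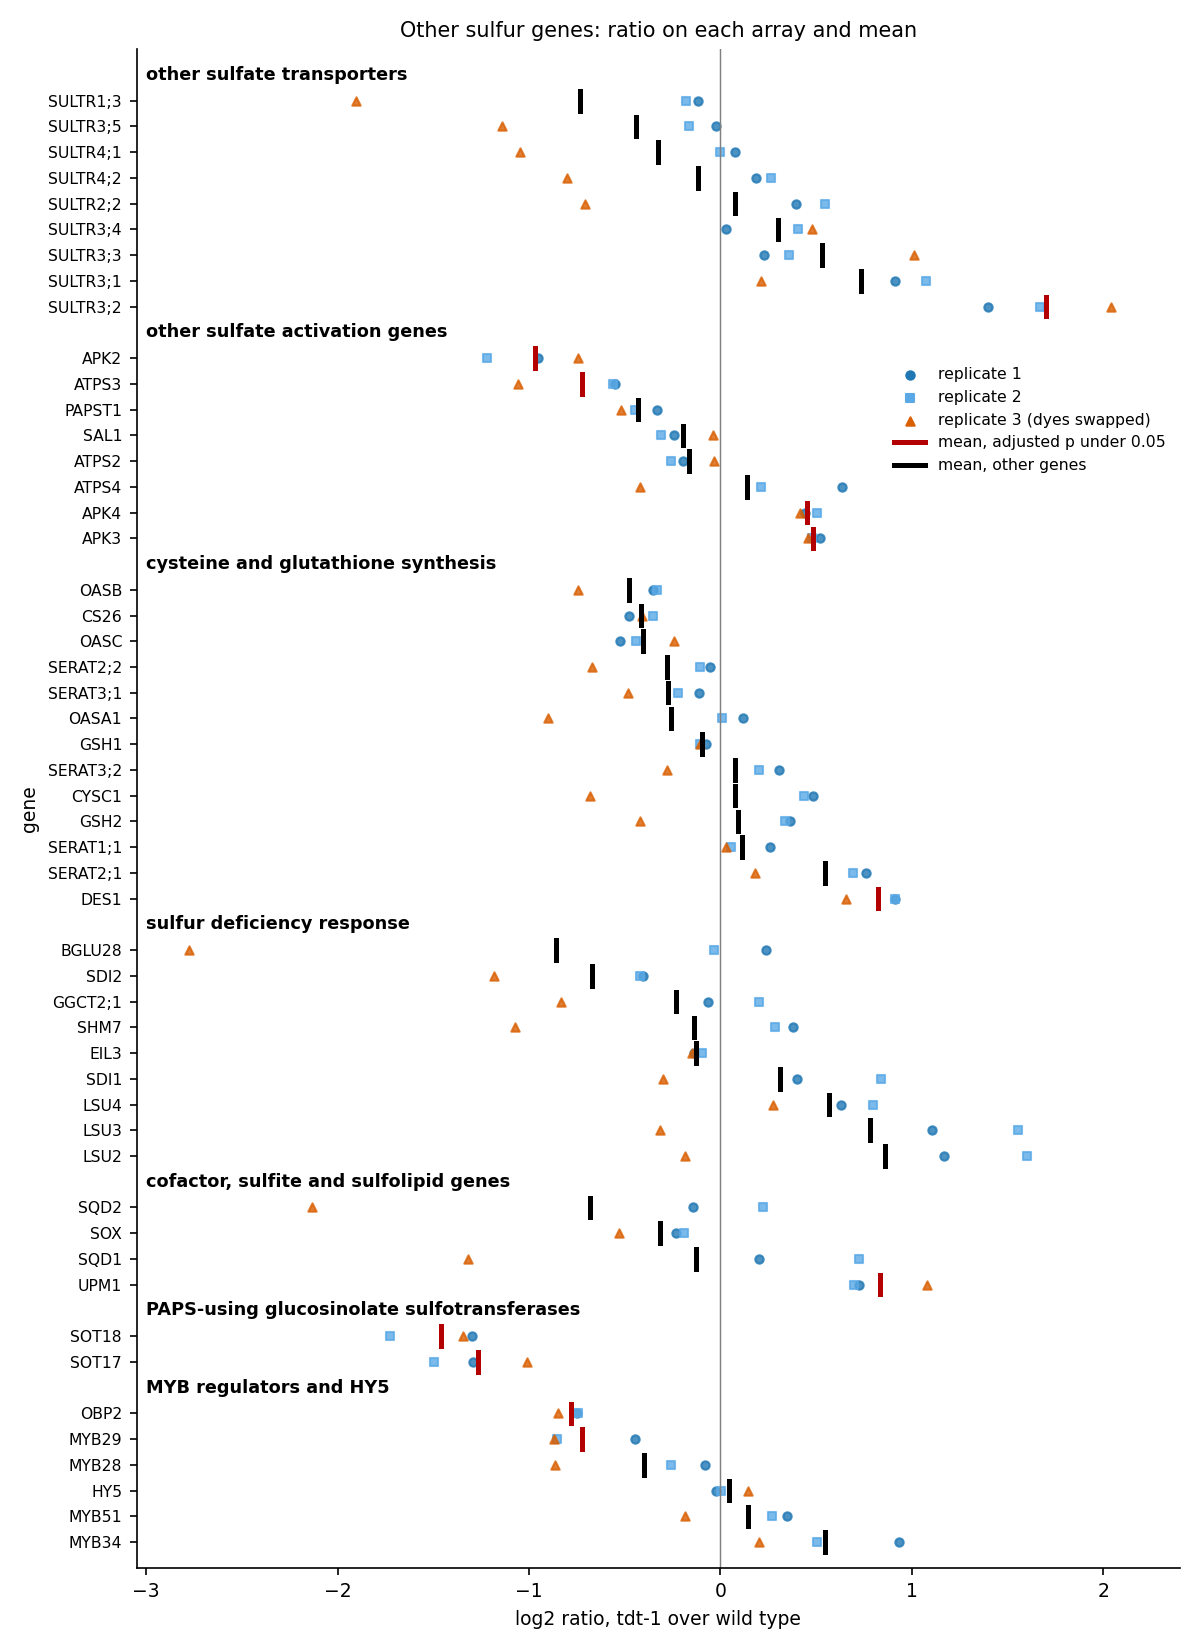
Log2 ratio of tdt-1 over wild type (horizontal axis) for the tested genes of 7 further sulfur lists (vertical axis), with 1 symbol per array and a vertical bar at the mean, red where the adjusted p was under 0.05. APK3 and APK4 lie above 0 and APK2 below it on every array, whereas LSU2 and LSU3 change side on replicate 3.

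Of 9 other sulfate transporters 1 rose, none fell and 8 did not pass, beside 7.36% of all tested loci called higher. At an unadjusted p under 0.05, 3 were higher and 0 lower, beside 19.5% and 15.6% of all tested loci. The 1 that passed the adjusted test was SULTR3;2 (AT4G02700), a transporter of the third group of the family. It had ratios of 1.40, 1.67 and 2.04 and a mean of 1.70 ± 0.32, or 3.26-fold (limma adjusted p = 0.0183). Its levels of 10.64, 10.62 and 11.60 in tdt-1 all exceeded the 9.24, 8.95 and 9.55 of wild type, opposite in direction to SULTR1;2. It did not pass without replicate 2 (limma adjusted p = 0.0640) or with the scan set as a random block (limma adjusted p = 0.0524). Nor did it pass with replicates 1 and 2 averaged (limma adjusted p = 0.0689) or with median centring (limma adjusted p = 0.0831). Its adjusted p over the alternatives ranged from 3.31e-05 to 0.0831.

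Of 13 genes for cysteine and glutathione synthesis and cysteine breakdown 1 rose, none fell and 12 did not pass, at a median of −0.10, and 1 in 13 is close to the 7.36% called higher over all tested loci. The member that rose was DES1 (AT5G28030), a cytosolic enzyme that degrades cysteine to sulfide (0.83 ± 0.15, limma adjusted p = 0.0241). GSH1, the first enzyme of glutathione synthesis, stood at −0.10 ± 0.02. Of 4 genes for cofactor, sulfite and sulfolipid metabolism 1 rose, beside 7.36% of all tested loci called higher. The other 3 did not pass and had means below 0, and the list median was −0.22. The gene that rose was UPM1 (AT5G40850), a methyltransferase that makes siroheme, the cofactor of sulfite reductase (0.83 ± 0.21, limma adjusted p = 0.0294), while SIR itself did not pass. The calls of DES1 and UPM1 were lost without replicate 1 (limma adjusted p of 0.113 or more), without replicate 2 (limma adjusted p of 0.134 or more) and with the scan set as a random block (limma adjusted p of 0.0850 or more), and their adjusted p ranged from 8.37e-05 to 0.191 over all alternatives. Both calls were also lost with median centring and with replicates 1 and 2 averaged.

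None of 9 other genes of the sulfur deficiency response passed limma's test, and 1 higher and 1 lower had an unadjusted p under 0.05, a smaller share than the 35.1% of all tested loci. Of the LSU family, LSU4 had ratios of 0.63, 0.80 and 0.28 and a mean of 0.57 ± 0.27 (limma adjusted p = 0.0658). LSU2 had 1.17, 1.6 and −0.19, and LSU3, the neighbour of LSU1 on chromosome 3, had 1.11, 1.56 and −0.32. Like LSU1, both stood above wild type on replicates 1 and 2 and slightly under it on replicate 3. All 9 genes of the list had a lower ratio on replicate 3 than on the other arrays, and its median was 0.38, 0.28 and −0.32 on replicates 1, 2 and 3. EIL3, the transcription factor SLIM1 that drives much of this response, stood at −0.13 ± 0.03 (limma adjusted p = 0.338).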

How the data were processed

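Spot intensities were deposited as mean pixel values with a median local background for each channel. The software was Agilent Feature Extraction per the file headers (8.5.1.1 on replicates 1 and 2, then 9.1.3.1). The deposited scanner log10 ratio, which the file headers describe as detrended and dye-normalized, served as an alternative. The deposited series table holds log2 values with tdt-1 as numerator (slope 1.00 against the turned scanner ratios, median 0 on each array) and was not used further. In limma 3.58.1 (R 4.3.3), background was corrected with normexp (offset 50), ratios were normalized by loess within arrays with control spots at weight 0, and replicate 3 was turned. Non-uniform spots were left out, and spots of a probe were averaged. Loci entered the test, by their brightest probe, if 1 genotype was flagged above background on each of the 3 arrays; the test was run by lmFit and eBayes. Channel levels were then scaled between arrays (Aquantile). The code of the fit was run on simulated intensities. Their noise was drawn independently for each array, so the run cannot show how the test behaves where replicates 1 and 2 are alike. That flag is the scanner software's, with a multiplier of 2.6 on replicates 1 and 2 and of 13 on replicate 3 per the file headers, so it is not the same criterion on all arrays. By that flag, 65.0% to 69.2% of noncontrol probes were well above background in tdt-1 and 69.2% to 79.6% in wild type. The number of arrays limits the precision.

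Of 25665 loci 25449 were found in the RefSeq gene table of TAIR10.1, which gave names and chromosomes; probe and promoter sequences were not used here, so cross-hybridisation between family members was not checked. The genes and lists were chosen with earlier results of these data known. Named are all 10 genes and, of each other list, the 4 members with the smallest p among those past the test, or the 1 with the smallest p where none passed. Named after their values were seen were GSH1, LSU2, LSU3, SDI2, EIL3, HY5, SOT16 and the markers TIP2;3, CASP1, AHA7, BGLU23, RBCS1A, LHCB1.1, LHCA1, SESA1, EM6 and CRA1.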

Additional observations from a re-analysis of the deposited data

How the results depend on the processing

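Over all tested loci, 1508 were higher and 1222 lower in tdt-1; the counts were 845 and 704 with no background correction, 1 and 0 with median centring, 6941 and 6260 with a dye term, 24 and 19 with replicates 1 and 2 averaged, and 86 and 79 with the scan set as a random block. Leaving out 1 array gave 66 to 7002 higher and 45 to 5463 lower. Of the 10 sulfate genes, 0 were lower with median centring or with replicates 1 and 2 averaged, 1 lower with the random block, 8 lower and 1 higher with a dye term, and 0 to 7 lower and 0 to 1 higher with 1 array left out. Without replicate 3, and likewise with a dye term, only replicates 1 and 2 set the residual spread. Of 15 named genes past the test, root markers included, all 15 lost the call with median centring and with replicates 1 and 2 averaged, 14 without replicate 2, 13 with the random block and 12 without replicate 1. Under every alternative run each gene named by the rule, and TIP2;3 and CASP1, kept its sign, except SIR, at 0.11 with median centring, which moved the median ratio of all tested loci by 0.24, 0.21 and −0.22 on replicates 1, 2 and 3. The correlation of the random block, 0.906, was the trimmed consensus of estimates at each locus (statmod 1.5.0), which limma's own function does not make from 3 arrays, and with 1 block of 2 arrays it rests on few degrees of freedom. The test is itself paired, since each array holds both genotypes, so no further pairing was fitted.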
